A study of Mus musculus with 8 samples.

Results

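The transcripts of the mitochondrial genome were followed in mouse liver as every row of the deposited expression table whose gene symbol begins with mt-, which gave 37 of 55335 rows. These were 13 messenger RNAs, 2 ribosomal RNAs and 22 transfer RNAs, the full gene set of mouse mitochondrial DNA. The livers came from wild-type (WT) mice fed CDAHFD, a high-fat diet that lacks choline and supplies L-amino acids in defined amounts, which induces steatohepatitis, a fatty and inflamed liver. The mice had received, into a vein, vesicles isolated from the circulation of human volunteers, collected either after remote limb ischemic conditioning (RIC_hEV, 4 libraries) or after a sham procedure (ctr_hEV, 4 libraries). Conditioning of this kind repeatedly stops and restores the blood supply of an arm or leg. Both groups thus shared diet, genotype, injection route and the human origin of the vesicles, and differed in the conditioning of the volunteers. The labels give no age, sex, dose, injection schedule or animal identifier. It is therefore not known whether each library is its own mouse, and the p-values measure only the spread between these libraries.

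Mitochondrial DNA is a small circle that is transcribed from both strands into long precursors. Transfer RNAs lie between most of the ribosomal and messenger RNA genes, and their excision releases the neighbouring transcripts. The messenger RNAs encode core subunits of the respiratory chain and the ATP synthase, the ribosomal RNAs form the mitochondrial ribosome, and the transfer RNAs decode the messages inside the organelle. Hepatocytes are rich in mitochondria, and these transcripts are abundant in liver RNA.

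Levels are given as FPKM, fragments scaled to transcript length and to the mapped fragments of a library, so that genes of different length can be compared. Summed FPKM lay between 389616 and 430326 per library, and the estimated depth was between 23700000 and 28800000 fragments per ctr_hEV library and between 19300000 and 28500000 per RIC_hEV library. Across the 11274 tested genes, Pearson's r between pairs of libraries lay between 0.958 and 0.987. The hepatocyte markers were high in every library, with a summed level of 25103 to 37538 FPKM, lowest in ctr_hEV 1. Libraries ctr_hEV 1 and ctr_hEV 3 stood apart in red blood cell markers (597 and 345 FPKM against 75.8 to 176 in the 6 others) and in cholangiocyte markers (16.9 and 9.78 FPKM against 2.88 to 3.81). They were also the highest for stellate cell and fibroblast markers (139 and 117 FPKM against 71.1 to 96.5). ctr_hEV 1 was highest for the macrophage marker sum (239 FPKM against 141 to 211). The macrophage marker Clec4f was not highest there, at 54.0 FPKM against 39.1 to 72.5 in the others. Skeletal muscle markers summed to at most 0.325 FPKM, with Myh4 and Tnnt3 at 0 in all libraries, and brown fat markers to at most 0.257 FPKM.

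The 37 mitochondrial rows together held 17.1% ± 1.43 (SD, n = 4) of all FPKM in ctr_hEV and 18.2% ± 0.562 (SD, n = 4) in RIC_hEV. The shares were 15.1%, 17.6%, 17.3% and 18.5% in ctr_hEV 1 to 4, and 19.0%, 17.9%, 17.9% and 17.9% in RIC_hEV 1 to 4. The groups overlapped, with ctr_hEV 4 above 3 of the RIC_hEV libraries, and the lowest share belonged to ctr_hEV 1. The difference of 1.01 percentage points became 0.335 without ctr_hEV 1. That library also had the highest red blood cell, cholangiocyte and stellate cell marker sums and the lowest hepatocyte marker sum. Its macrophage marker sum was the highest too, but not its Clec4f. The part of these markers in the result was not tested. In bulk tissue, fewer cells of a type and less RNA per cell cannot be told apart.

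Messenger RNAs made up nearly all of this share. They held 16.0% ± 1.30 of FPKM in ctr_hEV and 16.9% ± 0.527 in RIC_hEV, transfer RNAs 0.984% ± 0.162 and 1.03% ± 0.0869, and ribosomal RNAs 0.208% ± 0.0443 and 0.178% ± 0.0293 (SD, n = 4 for each). Whether the library kit was used with selection of polyadenylated RNA or with removal of ribosomal RNA is not stated in the labels, so the order of the 3 classes describes these libraries. The transfer RNAs are 59 to 75 bases long, shorter than a usual sequencing fragment, and their FPKM can include fragments of longer precursors.

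**Figure D1:**
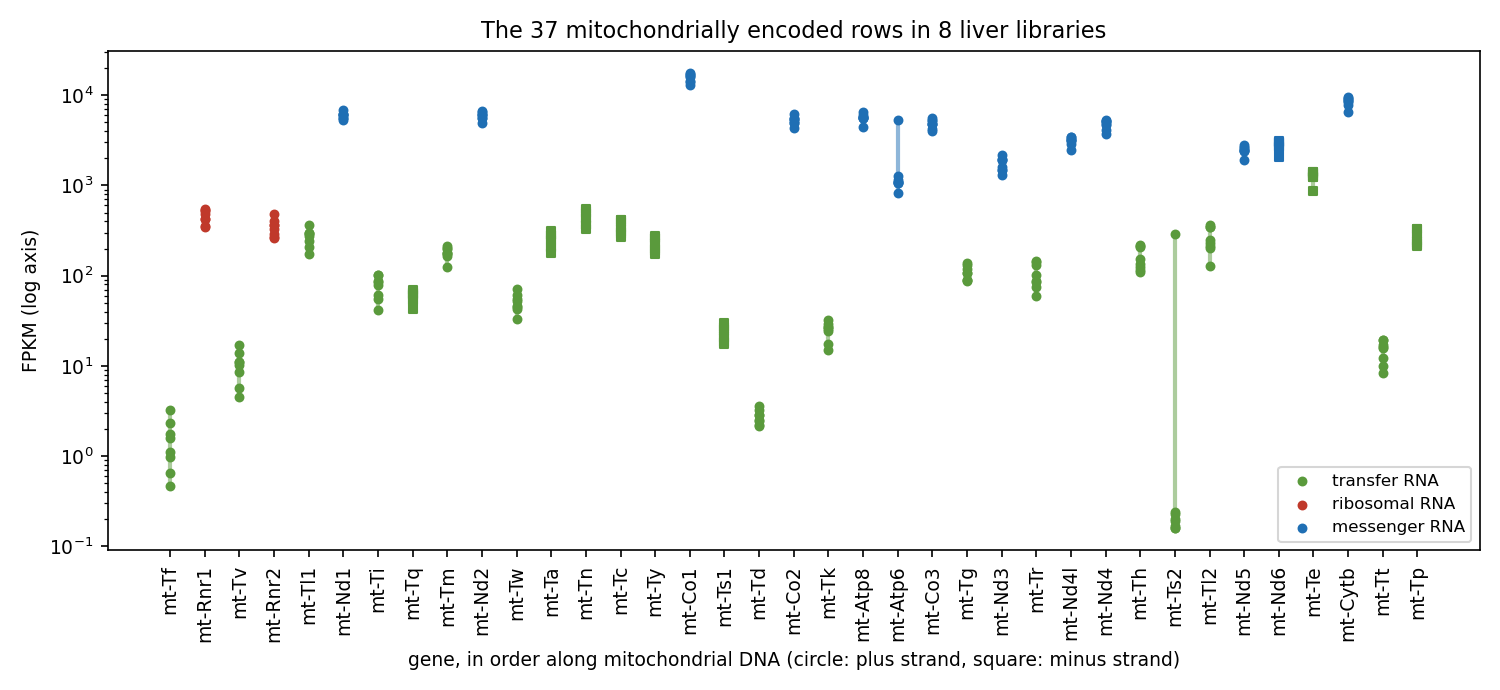
FPKM (log axis) of each of the 37 mitochondrial rows in the 8 libraries, 1 point per library, with genes in their order along mitochondrial DNA, colours for the 3 classes and squares for the minus strand. Messenger RNAs lie at 829 FPKM or above in every library, ribosomal RNAs between 264 and 544, and transfer RNAs from 0.161 to 1427, with mt-Atp6 and mt-Ts2 each high in 1 library.

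Among the messenger RNAs, mt-Co1 was highest, with a mean of 15655 FPKM over the 8 libraries. It encodes the catalytic subunit of cytochrome c oxidase, the last complex of the respiratory chain. Its levels were 12981, 16346, 14150 and 17434 FPKM in ctr_hEV 1 to 4 and 16060, 17193, 16603 and 14474 in RIC_hEV 1 to 4. It ranked 2 among all rows of the table in each of the 8 libraries, and the groups overlapped. Next came mt-Cytb, the cytochrome b subunit of complex III, with a mean of 8535 FPKM and rank 3 in every library. Its levels were 6539, 8587, 7719 and 8914 FPKM in ctr_hEV and 9327, 9657, 9171 and 8367 in RIC_hEV. Library ctr_hEV 1 was lowest for both genes, and both groups overlapped for mt-Cytb as well.

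This order is that of the rows as listed. Several messenger RNAs, mt-Co2 and mt-Co3 among them, have nuclear copies listed at nearly equal levels, as given below. How reads shared with a copy were assigned is not known. The order of the transcripts themselves is therefore uncertain, the second place of mt-Cytb and the last place of mt-Atp6 included. Among the rows as listed, the order below mt-Co1 and mt-Cytb was less firm. The complex I subunits mt-Nd1 (mean 5987 FPKM) and mt-Nd2 (5945 FPKM) differed by less than their spread, with mt-Nd1 above mt-Nd2 in 5 of 8 libraries, and mt-Nd2 was above mt-Atp8 (5666 FPKM) in 6 of 8. mt-Atp8 encodes a small subunit of the ATP synthase. The other cytochrome c oxidase subunits followed, mt-Co2 at 5234 FPKM and mt-Co3 at 4847 FPKM, and mt-Co3 was above the complex I subunit mt-Nd4 (4736 FPKM) in 6 of 8 libraries. The remaining complex I subunits were lower, mt-Nd4l at 3120 FPKM, mt-Nd6 at 2757 FPKM, mt-Nd5 at 2465 FPKM and mt-Nd3 at 1732 FPKM. mt-Nd6, the only messenger RNA on the minus strand, was above mt-Nd5 in all 8 libraries. The lowest mean was that of mt-Atp6, the proton-channel subunit of the ATP synthase, at 1604 FPKM, with a median of 1086.

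Library ctr_hEV 1 was lowest for 12 of the 13 messenger RNAs, the exception being mt-Co3, which was lowest in RIC_hEV 4. RIC_hEV 1 was highest for 6 of the 13, ctr_hEV 4 for 3, RIC_hEV 2 for 2, and RIC_hEV 3 and RIC_hEV 4 for 1 each. Leaving out mt-Atp6, the coefficient of variation over the 8 libraries was 8.07% (mt-Nd1) to 17.1% (mt-Nd3).

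**Figure D2:**
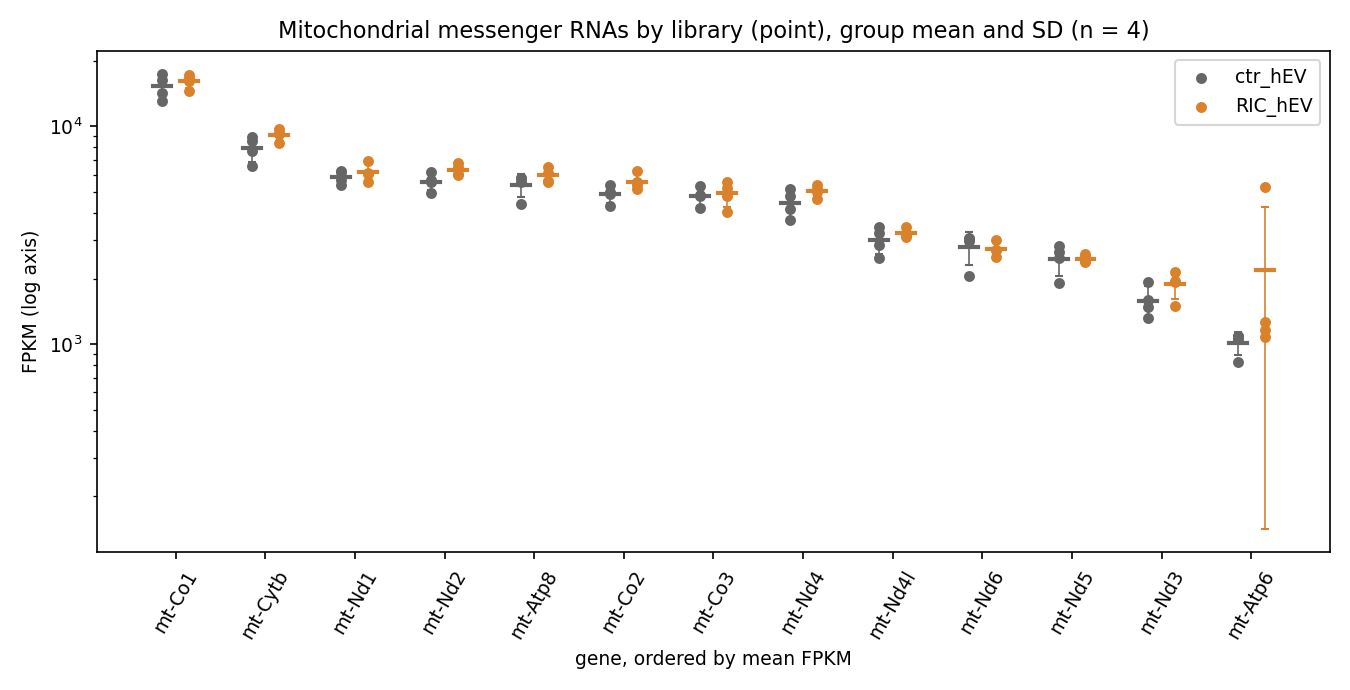
FPKM (log axis) of the 13 mitochondrial messenger RNAs, ordered by mean, with 1 point per library, horizontal bars for group means and vertical bars for SD (n = 4 per group). The groups overlap for every gene; 12 genes vary little between libraries and mt-Atp6 has 1 RIC_hEV library at 5271 FPKM against 829 to 1266 in the other 7.

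To ask whether vesicles from conditioned volunteers were followed by other mitochondrial RNA levels than sham vesicles, all tested genes were fitted together in limma on log2(FPKM + 1), and p-values were adjusted by Benjamini-Hochberg over the whole table. A change is RIC_hEV minus ctr_hEV on this log2 scale. The median change of all tested genes was -0.11, and values of single rows are given as fitted. All 37 mitochondrial rows passed the filter of a mean FPKM of at least 1, mt-Ts2 only through RIC_hEV 1. None was called in limma at an adjusted p under 0.05, where 0.0177% of all tested genes were called higher and 0.0177% lower. At an unadjusted p under 0.05, 2 of the 37 were higher and 0 lower, against 2.63% higher and 11.3% lower among all tested genes. The 2 were the transfer RNAs mt-Tt and mt-Td.

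The 13 messenger RNAs had a median log2 change of 0.15, with 12 higher and 1 lower as fitted. The median of all tested genes was -0.11, with 3042 higher and 8232 lower. The lowest adjusted p among the messenger RNAs was 0.413 in limma. In 0 of the 13 were the groups free of overlap, where 1.31% of all tested genes had every RIC_hEV library above every ctr_hEV library and 4.56% every one below. The size of the median change depended on scaling and on ctr_hEV 1 and ctr_hEV 3. It was 0.28 after centring each library on its median gene, 0 after quantile normalization with 8 higher and 5 lower, 0.055 without ctr_hEV 1 and 0.048 without ctr_hEV 1 and ctr_hEV 3 together. Both of these libraries had high red blood cell, cholangiocyte and stellate cell marker sums, and their part in the result was not tested.

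Of the complex I messages, mt-Nd3 had the largest fitted change, from 1581 ± 258 to 1882 ± 277 FPKM (SD, n = 4), with a log2 change of 0.25 (SE 0.15, limma adjusted p = 0.422). mt-Nd2 went from 5573 ± 503 to 6316 ± 365 FPKM and mt-Nd4 from 4439.98 ± 638 to 5031 ± 301 FPKM, with adjusted p of 0.413 and 0.450 in limma. The groups overlapped for all 3 genes. mt-Nd5, at 2459.9 ± 396 and 2471 ± 88.0 FPKM, and mt-Nd6, with a log2 change of -0.01, had the smallest. mt-Cytb had a log2 change of 0.21 (SE 0.12, limma adjusted p = 0.413). Without ctr_hEV 1 the changes of mt-Cytb and mt-Nd4 were 0.12 and 0.11, the latter from 0.19. The cytochrome c oxidase messages had log2 changes of 0.09 (mt-Co1), 0.19 (mt-Co2) and 0.03 (mt-Co3), with adjusted p between 0.420 and 0.908 in limma.

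mt-Atp6 and mt-Atp8 are adjacent and overlap, the end of mt-Atp8 being read again in another frame as the start of mt-Atp6. The sequences are printed because reads from the shared bases cannot be assigned to either gene, and because the start of a nuclear copy matches mt-Atp6. They come from the GENCODE M21 transcripts (build mm10), 5′ to 3′. mt-Atp8 lies at chrM:7766-7969 and mt-Atp6 at chrM:7927-8607, both on the plus strand, and the stretches shown are chrM:7900-7969 and chrM:7927-7996. Gm10925, annotated as an unprocessed pseudogene, lies on the minus strand at chr1:24613974-24614651, and its stretch is chr1:24614585-24614651. Capitals in the first 2 lines mark the 43 bases that mt-Atp8 and mt-Atp6 share; in the line of Gm10925 capitals would mark differences from mt-Atp6, and there are none.
mt-Atp8, 3′ end: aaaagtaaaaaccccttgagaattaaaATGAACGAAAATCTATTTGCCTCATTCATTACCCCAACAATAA
mt-Atp6, 5′ end: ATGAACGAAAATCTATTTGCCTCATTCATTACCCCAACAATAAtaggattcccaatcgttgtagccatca
Gm10925, 5′ end: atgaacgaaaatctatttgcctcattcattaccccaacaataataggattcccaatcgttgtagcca

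mt-Atp6 jumped in a single library. Its levels were 829, 1057, 1088 and 1084 FPKM in ctr_hEV 1 to 4 and 1266, 1162, 1077 and 5271 FPKM in RIC_hEV 1 to 4. RIC_hEV 4 was 4.16 times the next highest library, while the other 3 RIC_hEV libraries reached into or just above the range of ctr_hEV. The fitted log2 change of 0.75 (SE 0.43, limma adjusted p = 0.413) became 0.21 without RIC_hEV 4 (adjusted p = 0.445). It was the largest fitted change among the messenger RNAs, and it rested on that library.

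The overlapping gene did not share the jump. mt-Atp8 was at 4408, 5553, 5772 and 5809 FPKM in ctr_hEV and 6508, 6116, 5552 and 5607 in RIC_hEV, so RIC_hEV 4 lay inside the range of the others. The level of mt-Atp6 was 0.187 to 0.195 of that of mt-Atp8 in 7 libraries and 0.940 in RIC_hEV 4. mt-Co3, which begins at the last base of mt-Atp6, had its lowest level, 4047 FPKM, in RIC_hEV 4.

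The nuclear copy of mt-Atp6 did not share the jump either. Gm10925 is identical to bases 1 to 678 of mt-Atp6, and 99.5% of the 31-base words of mt-Atp6 occur in another annotated transcript. Gm10925 was listed at 4415, 5595, 5698 and 5850 FPKM in ctr_hEV and 6723, 6016, 5785 and 5635 in RIC_hEV. The ratio of mt-Atp6 to Gm10925 was 0.185 to 0.193 in 7 libraries and 0.935 in RIC_hEV 4, whereas the ratio of mt-Atp8 to Gm10925 stayed between 0.960 and 1.02 in all 8. Reads of mt-Atp6 and Gm10925 cannot be told apart by sequence over the copied stretch, so the level of either row is uncertain. When both rows were summed, the log2 change was 0.35 with an adjusted p of 0.359 in limma.

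Of 11 rows listed as nuclear copies, 10 could be aligned to mitochondrial genes. The other, Gm15564, was at 0 in 6 libraries and at most 0.0367 FPKM. The 7 copies on chromosome 1 lie in the same order as on mitochondrial DNA, between bases 24611535 and 24616197 of the minus strand (mm10), and match at 99.7% to 100% of aligned bases. Gm28438 differs from mt-Nd3 by 1 substitution, T3C, counted from 1 at the start of mt-Nd3 with the base of mt-Nd3 given first. All 11 rows held 6.95% ± 0.579 of FPKM in ctr_hEV and 7.39% ± 0.451 in RIC_hEV (SD, n = 4).

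Apart from mt-Atp6, where a copy on chromosome 1 spans nearly the whole gene, the mitochondrial row and the copy carried nearly equal levels. The ratio of mt-Co3 to Gm28437 was 0.998 to 0.999, that of mt-Co2 to Gm28661 0.993 to 0.994, that of mt-Nd4l to Gm10222 0.990 to 0.996 and that of mt-Nd3 to Gm28438 1.02 to 1.06 over the 8 libraries. mt-Atp6 in RIC_hEV 4, at 0.935, lay nearer to these ratios than mt-Atp6 in the other 7 libraries. Partial copies on chromosome 1 had higher ratios, 1.57 to 1.66 for mt-Nd4 to Gm28439 and 2.46 to 2.71 for mt-Co1 to Gm29216. The less similar copies on chromosome 2, 96.7% to 97.6% identical, were far below their counterparts. Gm13340 was at 66.8 to 114 FPKM, Gm13341 at 60.3 to 98.6 and Gm13339 at 4.17 to 19.1, against means of 15655 (mt-Co1), 5234 (mt-Co2) and 5945 FPKM (mt-Nd2).

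For the other 6 messenger RNAs, most 31-base words occur in no other annotated transcript. Sequence outside annotated transcripts was not searched. mt-Atp8 lies between mt-Co2 and mt-Atp6. The stretch between their copies on chromosome 1, Gm28661 and Gm10925, is among what was not searched, so its sequence may not be its own. None of the 31-base words of mt-Nd1 occurs in another annotated transcript, and 6.55% of those of mt-Cytb, 7.36% of those of mt-Nd6, 7.47% of those of mt-Atp8, 13.5% of those of mt-Nd2 and 16.8% of those of mt-Nd5 do. The log2 changes of these 6 were 0.07 (mt-Nd1), 0.21 (mt-Cytb), -0.01 (mt-Nd6), 0.15 (mt-Atp8), 0.18 (mt-Nd2) and 0.02 (mt-Nd5).

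The 2 ribosomal RNAs had a negative median log2 change, -0.16 as fitted. mt-Rnr1, the RNA of the small subunit (chrM:70-1024), stood at 525, 351, 544 and 481 FPKM in ctr_hEV 1 to 4 and 420, 422, 531 and 353 in RIC_hEV 1 to 4. mt-Rnr2, the RNA of the large subunit (chrM:1094-2675), was at 364, 268, 478 and 368 FPKM in ctr_hEV and 325, 289, 406 and 264 in RIC_hEV. For both genes ctr_hEV 3 was the highest library, ctr_hEV 2 and RIC_hEV 4 were the 2 lowest, and the groups overlapped. The log2 changes were -0.13 (SE 0.17) and -0.19 (SE 0.18), with limma adjusted p of 0.681 and 0.596. After centring each library on its median gene, 1 of the 2 was higher and 1 lower, and without ctr_hEV 1 and ctr_hEV 3 together both were higher. With 1 library left out both stayed lower, and their median ran from -0.30 without ctr_hEV 2 and -0.27 without RIC_hEV 3 to -0.07 without RIC_hEV 4 and -0.06 without ctr_hEV 3.

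The libraries did not order by ribosomal RNA as they did by messenger RNA. ctr_hEV 1, lowest for 12 messenger RNAs, was lowest for neither ribosomal RNA and had the second highest summed ribosomal share after ctr_hEV 3, 0.228% against 0.255%. The ratio of mt-Rnr1 to mt-Rnr2 was 1.14 to 1.46 over the 8 libraries, with the extremes in ctr_hEV 3 and RIC_hEV 2. mt-Rnr1 ranked between 84 and 130 among all rows and mt-Rnr2 between 101 and 167.

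By their means, transfer RNA rows spanned nearly 3 orders of magnitude. The mean over 8 libraries ran from 1.51 FPKM for mt-Tf, the phenylalanine transfer RNA, to 1275 FPKM for mt-Te, the glutamate transfer RNA, with a median of 106 FPKM. In every library but RIC_hEV 1 the lowest row was mt-Ts2, at 0.161 to 0.240 FPKM, and its mean of 36.3 FPKM came from RIC_hEV 1. The 14 on the plus strand had a median of 63.8 FPKM and the 8 on the minus strand one of 256 FPKM. Strand was not a clean divide, since the plus-strand leucine transfer RNA mt-Tl1 reached 269 FPKM and the minus-strand serine transfer RNA mt-Ts1 23.1 FPKM. The labels do not say whether counting used strand, so a row on 1 strand can hold fragments from the other strand's precursor.

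Levels of minus-strand neighbours were similar in some places and far apart in others. The alanine, asparagine, cysteine and tyrosine transfer RNAs, which follow each other on that strand, had means of 246 FPKM (mt-Ta), 437 FPKM (mt-Tn), 344 FPKM (mt-Tc) and 226 FPKM (mt-Ty). The serine transfer RNA mt-Ts1, the next gene on that strand beyond mt-Ty, had a mean of 23.1 FPKM. mt-Te lies beside mt-Nd6, and its level was 0.427 to 0.507 of that of mt-Nd6 in the 8 libraries. ctr_hEV 1 was lowest for 14 of the 22 transfer RNAs, and ctr_hEV 4 was highest for 8.

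Of the 22 transfer RNAs, 20 were higher and 2 lower as fitted, with a median log2 change of 0.13. Without mt-Ts2, which passed the filter only through RIC_hEV 1, 19 were higher and 2 lower, with a median of 0.13. Of all tested genes, 3042 were higher and 8232 lower as fitted. In limma 0 of the 22 were called, where 0.0177% of all tested genes were called in each direction. At an unadjusted p under 0.05, 2 were higher in RIC_hEV and 0 lower, beside 2.63% and 11.3% of all tested genes. The lower ones were mt-Tp (-0.13), the proline transfer RNA, and mt-Tw (-0.05), the tryptophan transfer RNA. The split of the 22 was 22 to 0 after centring on the median gene, with all tested genes at 6336 to 4938. It was 16 to 6 after quantile normalization, with all tested genes at 5465 to 5809. Without ctr_hEV 1 it was 12 to 10, and without ctr_hEV 1 and ctr_hEV 3 together 10 to 12. All tested genes then stood at 3818 to 7340 and at 4746 to 6324. Without ctr_hEV 4, mt-Tt and the isoleucine transfer RNA mt-Ti passed, with log2 changes of 0.77 and 0.74 and limma adjusted p of 0.0433 and 0.0468, in a fit that called 175 of all tested genes instead of 4.

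**Figure D3:**
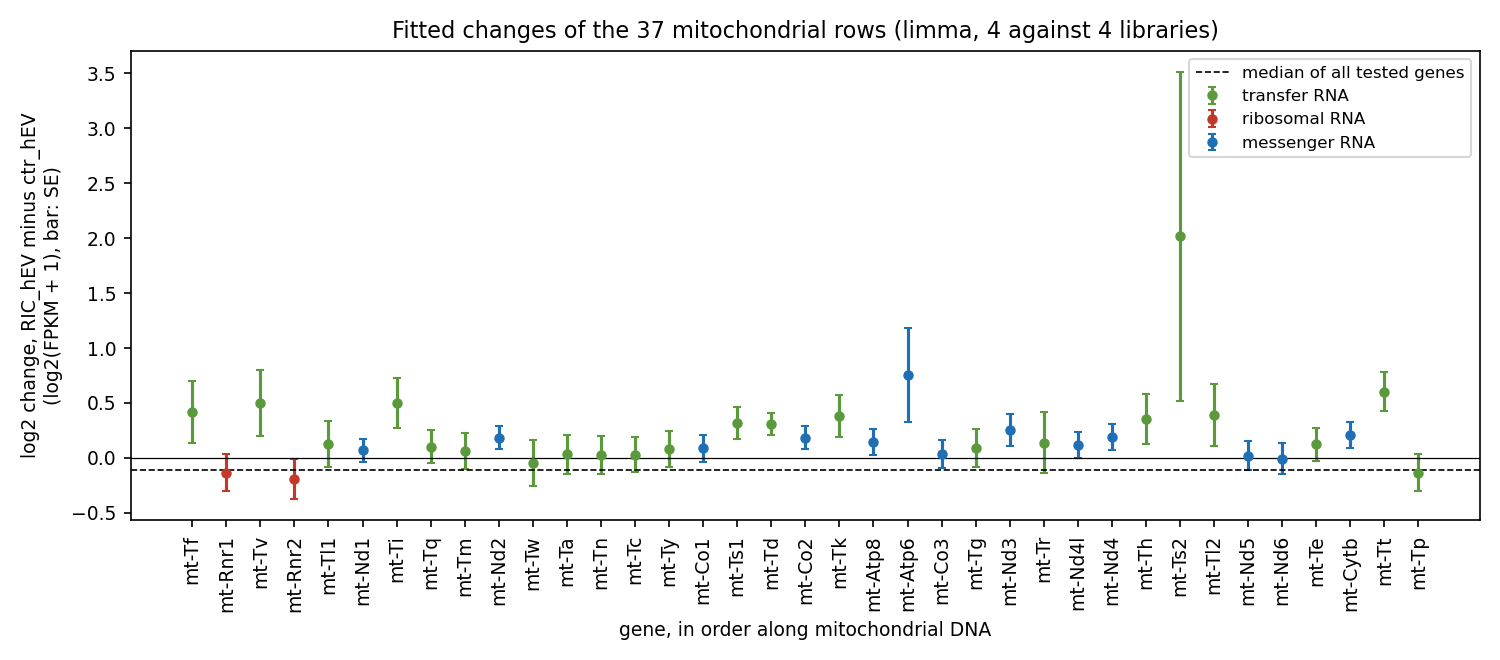
Fitted log2 change (RIC_hEV minus ctr_hEV, limma on log2(FPKM + 1), 4 against 4 libraries) of the 37 mitochondrial rows in genome order, with bars of 1 SE and a dashed line at the median of all tested genes, -0.11. The values run from -0.19 (mt-Rnr2) to 2.02 (mt-Ts2), and mt-Ts2 and mt-Atp6 have the widest bars.

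The threonine transfer RNA mt-Tt and the aspartate transfer RNA mt-Td had the lowest p among the members, and their sequences are shown for that reason. mt-Tt lies at chrM:15289-15355 and mt-Td at chrM:6942-7011 (mm10, both on the plus strand). Neither shares a 31-base word with another annotated transcript. mt-Td lies between mt-Co1 and mt-Co2, whose copies Gm29216 and Gm28661 are neighbours on chromosome 1. Unannotated sequence between these copies was not searched, so a nuclear copy of mt-Td there is not excluded. No base is in capitals, since no part is set off.
mt-Tt: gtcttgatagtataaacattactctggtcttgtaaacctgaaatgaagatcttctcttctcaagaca
mt-Td: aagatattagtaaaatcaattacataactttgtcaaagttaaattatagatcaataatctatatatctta

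mt-Tt stood at 9.96, 8.37, 12.2 and 16.4 FPKM in ctr_hEV 1 to 4 and at 17.0, 19.3, 19.4 and 15.8 FPKM in RIC_hEV 1 to 4. Only ctr_hEV 4 and RIC_hEV 4 crossed, by less than 1 FPKM. The log2 change was 0.60 (SE 0.17, limma adjusted p = 0.332).

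mt-Td was at 2.13, 2.50, 2.23 and 2.47 FPKM in ctr_hEV and at 2.88, 3.57, 3.22 and 2.86 in RIC_hEV. It was the only mitochondrial row whose groups did not overlap, with the RIC_hEV libraries higher, where 1.31% of all tested genes had groups apart in that direction. Its log2 change was 0.31 (SE 0.10, limma adjusted p = 0.340). At the estimated depths these values are worth 3.69 to 6.42 fragments per library over the annotated length. mt-Tf, at 0.464 to 3.22 FPKM, came to 0.804 to 4.38, at its lowest less than a whole fragment. For genes this short the conversion therefore need not give the true number of fragments. Levels of both genes are poorly determined.

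Other transfer RNAs with fitted log2 changes above 0.3 were mt-Ti at 0.50 (SE 0.23), the valine transfer RNA mt-Tv at 0.50 (SE 0.30), mt-Tf at 0.42 (SE 0.28), mt-Tl2 at 0.39 (SE 0.28), the lysine transfer RNA mt-Tk at 0.38 (SE 0.19), the histidine transfer RNA mt-Th at 0.36 (SE 0.23) and mt-Ts1 at 0.32 (SE 0.14). Their limma adjusted p lay between 0.357 and 0.491. mt-Tm, mt-Tl1, mt-Tq, mt-Tg, mt-Tr, mt-Te, mt-Ta, mt-Tn, mt-Tc and mt-Ty had fitted changes between 0.02 and 0.14. These are the transfer RNAs for methionine, leucine, glutamine, glycine, arginine, glutamate, alanine, asparagine, cysteine and tyrosine.

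The largest fitted change of all mitochondrial rows belonged to mt-Ts2, 1 of the 2 serine transfer RNAs, and came from 1 library. It sits between mt-Th and the leucine transfer RNA mt-Tl2 without a gap. The 3 are printed because their levels are compared, at chrM:11546-11612, chrM:11613-11671 and chrM:11671-11741 (mm10, plus strand). The capital marks the base that mt-Ts2 and mt-Tl2 share.
mt-Th: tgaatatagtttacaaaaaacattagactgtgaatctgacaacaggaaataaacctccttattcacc
mt-Ts2: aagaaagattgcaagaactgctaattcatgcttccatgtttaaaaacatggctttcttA
mt-Tl2: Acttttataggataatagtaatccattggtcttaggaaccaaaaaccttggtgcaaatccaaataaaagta

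mt-Ts2 stood at 0.161, 0.161, 0.202 and 0.193 FPKM in ctr_hEV 1 to 4 and at 289, 0.240, 0.169 and 0.230 FPKM in RIC_hEV 1 to 4. RIC_hEV 1 was 1203 times the next highest library, and the other 3 RIC_hEV libraries overlapped with ctr_hEV. At the estimated depths, 289 FPKM corresponds to 435 fragments over the 59 annotated bases. The 7 low values correspond to 0.262 to 0.287 fragments, less than a whole fragment, so they do not follow from whole fragments over that length. The log2 change was 2.02 (SE 1.497, limma adjusted p = 0.498). Without RIC_hEV 1, mt-Ts2 did not reach the filter and was not tested.

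The flanking genes had no such step. mt-Th was at 109, 125, 115 and 218 FPKM in ctr_hEV and 213, 135, 208 and 154 in RIC_hEV, and mt-Tl2 at 202, 227, 128 and 361 FPKM in ctr_hEV and 350, 211, 347 and 245 in RIC_hEV. In RIC_hEV 1 the level of mt-Ts2 was 1.36 times that of mt-Th, and in the 7 other libraries at most 0.00178 times. mt-Ts2 shares no 31-base word with another annotated transcript. mt-Ts1, the other serine transfer RNA, was at 24.1 FPKM in RIC_hEV 1, within its range of 17.3 to 29.9 over all libraries.

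**Figure D4:**
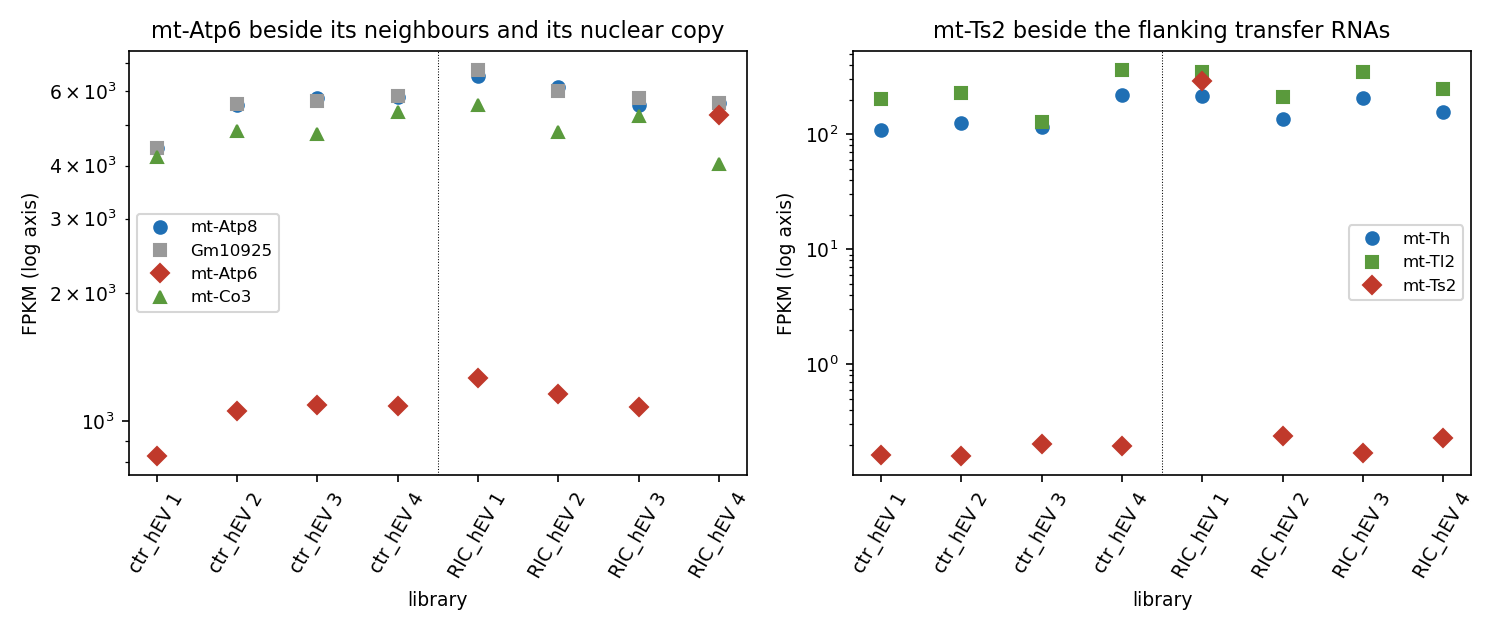
FPKM (log axes) in each of the 8 libraries, left for mt-Atp6, mt-Atp8, mt-Co3 and the nuclear copy Gm10925, right for mt-Ts2 and the flanking mt-Th and mt-Tl2, with a dotted line between the groups. mt-Atp6 lies at 5271 FPKM in RIC_hEV 4 alone and mt-Ts2 at 289 FPKM in RIC_hEV 1 alone. The other genes show no rise of this size, and mt-Tl2 is lowest, at 128 FPKM, in ctr_hEV 3.

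Counting a jump as an extreme library at least 1.5 times above its nearest neighbour, or as far below it, 3 of the 37 rows had one over the 8 libraries. These were mt-Atp6 in RIC_hEV 4, mt-Ts2 in RIC_hEV 1 and mt-Tl2 in ctr_hEV 3, which at 128 FPKM was 1.57 times below the next library. The ratio of mt-Tl2 to mt-Th was 1.11 in ctr_hEV 3 and 1.56 to 1.85 in the other 7. None of the 3 jumps was shared by an adjacent mitochondrial gene in the same library.

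Nuclear genes that copy, transcribe, cut and stabilise mitochondrial RNA were read from a list of 56 symbols, of which 53 were in the table and 48 passed the filter. In limma 0 were called. At an unadjusted p under 0.05, 1 was higher (beside 2.63% of all tested genes) and 3 were lower (beside 11.3%). As fitted, 12 were higher and 36 lower, beside 3042 and 8232 of all tested genes. Their median log2 change was -0.08 beside -0.11 for all tested genes. After centring each library on its median gene, 36 were higher and 12 lower, beside 6336 and 4938 of all tested genes.

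The highest change was that of Hsd17b10, a dehydrogenase that is also a subunit of the mitochondrial RNase P, which cuts the 5′ ends of transfer RNAs. It stood at 52.1, 82.1, 83.3 and 76.9 FPKM in ctr_hEV 1 to 4 and 86.4, 87.1, 93.8 and 102 in RIC_hEV 1 to 4. The groups did not overlap, where 1.31% of all tested genes had every RIC_hEV library above every ctr_hEV library. The log2 change was 0.34 (SE 0.15) and the limma adjusted p was 0.354. ctr_hEV 1 was again the lowest library, and without it the log2 change was 0.19. Trmt10c, the methyltransferase subunit of the same enzyme, went the other way, from 5.16 ± 0.794 to 4.19 ± 0.383 FPKM (SD, n = 4; log2 change -0.24, limma adjusted p = 0.365), and its change was -0.16 without ctr_hEV 2. Elac2, the enzyme that cuts the 3′ ends, was at 5.64 ± 0.813 and 5.12 ± 0.682 FPKM (log2 change -0.12).

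Of the 3 lower genes with an unadjusted p under 0.05, Top1mt is the mitochondrial topoisomerase, Trnt1 adds the CCA end to transfer RNAs, and Nsun4 methylates the small ribosomal RNA. Levels of Trnt1 were 2.52, 3.86, 2.82 and 2.30 FPKM in ctr_hEV and 2.10, 2.17, 2.15 and 2.12 in RIC_hEV, without overlap. The highest value was that of ctr_hEV 2, without which the log2 change of Trnt1 was -0.18. Levels of Nsun4 were 2.47, 1.98, 1.85 and 2.01 FPKM in ctr_hEV and 1.58, 1.82, 1.56 and 1.54 in RIC_hEV, also without overlap, beside 4.56% of all tested genes with every RIC_hEV library below every ctr_hEV library. Top1mt went from 5.73 ± 0.743 to 4.41 ± 0.450 FPKM and the groups overlapped. All 3 had a limma adjusted p of 0.354, with log2 changes of -0.31 (Top1mt), -0.29 (Trnt1) and -0.23 (Nsun4).

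The general factors showed smaller differences. Polrmt, the mitochondrial RNA polymerase, was at 2.70 ± 0.353 and 2.59 ± 0.142 FPKM, and Tfam, which packs mitochondrial DNA and starts transcription, at 9.75 ± 0.841 and 8.71 ± 0.905 FPKM (SD, n = 4). The messenger RNA stabilising pair Lrpprc and Slirp was at 9.75 ± 0.412 and 9.56 ± 1.22 FPKM and at 3.18 ± 0.332 and 3.11 ± 0.305 FPKM. Twnk, the replicative helicase, was at 6.94 ± 0.0675 and 7.29 ± 1.30 FPKM. Their log2 changes lay between -0.15 (Tfam) and 0.05 (Twnk). The next highest after Hsd17b10 were Fastkd1 (0.21), of a family of mitochondrial RNA-binding proteins, Mterf3 (0.16), a repressor of mitochondrial transcription, Mgme1 (0.07), an exonuclease of mitochondrial DNA, and Mterf4 (0.07), a partner of Nsun4. Supv3l1, an RNA helicase of mitochondrial RNA decay, was among the lowest at -0.23.

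**Figure D5:**
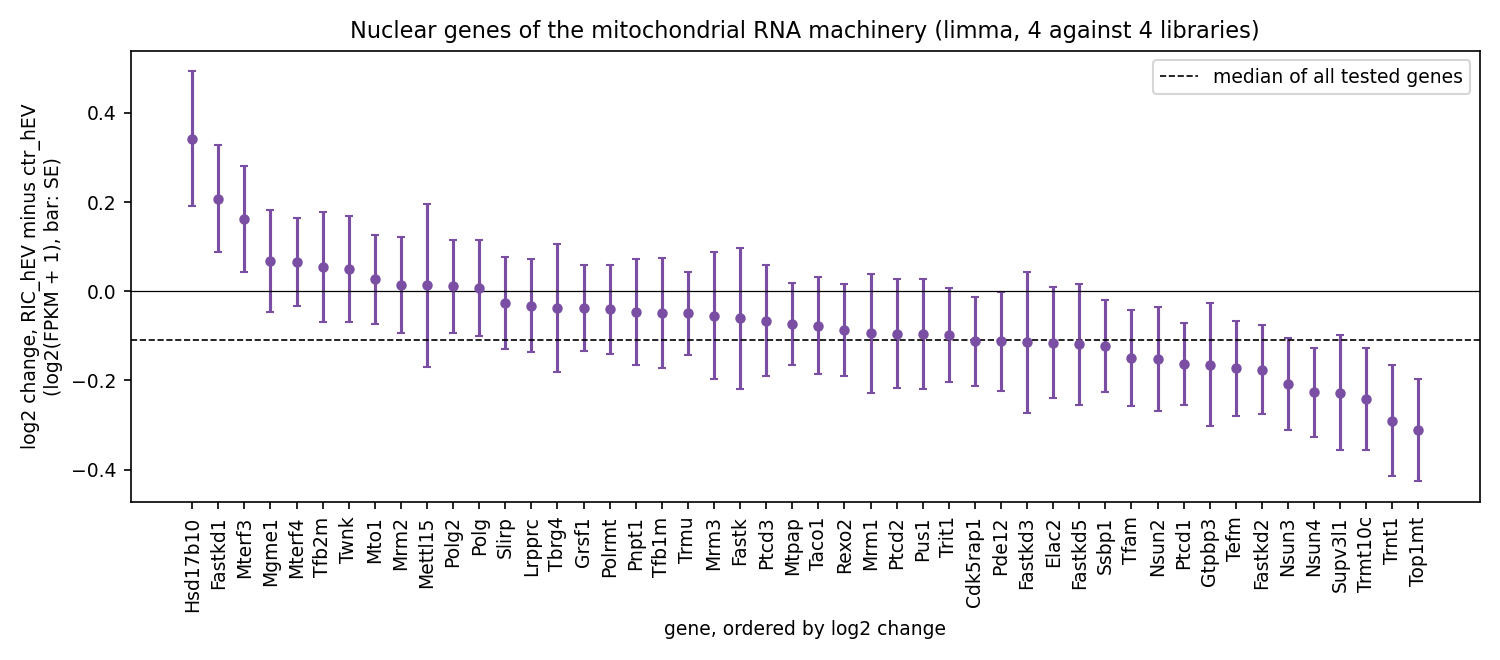
Fitted log2 change (RIC_hEV minus ctr_hEV, limma on log2(FPKM + 1), 4 against 4 libraries) of the 48 tested nuclear genes of mitochondrial RNA metabolism, ordered by change, with bars of 1 SE and a dashed line at the median of all tested genes. The values run from -0.31 (Top1mt) to 0.34 (Hsd17b10). The 12 highest lie above 0 and the 36 others below, beside 3042 and 8232 of all tested genes. After centring each library on its median gene, 36 lie above 0, beside 6336 above and 4938 below among all tested genes.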

How the data were processed

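Liver RNA was measured in 8 libraries, 4 per group, with groups and replicate numbers taken from the sample titles. Per the labels' protocols, Trizol was used for total RNA and a VAHTS universal kit for the libraries. Tools named in the submitters' processing notes are HISAT2 2.2.1, HTSeq 0.13.5, Trimmomatic 0.38, FastQC 0.11.9, R 3.4.1 and DESeq2 1.18.1, with the build mm10. The authors deposited FPKM in 1 column per library. Not given in the sources used here are the program behind FPKM, its gene lengths and annotation, the treatment of reads with several matches, and whether strand was used.

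FPKM was changed to log2(FPKM + 1), which understates changes of low genes. The 11274 rows with a mean of at least 1 FPKM were fitted in limma 3.58.1 (R 4.3.3) by moderated linear models (empirical Bayes, variance trended on the mean). Tests were two-sided, and calls needed a Benjamini-Hochberg adjusted p under 0.05. The script was tested on simulated data. The 3225 rows without a gene name, 0.176% to 0.207% of FPKM, were not tested. For each of 80 symbols that occur repeatedly, the symbol stayed with its most abundant row. No read counts were used. Depth was estimated from the most common value of FPKM times exon length among low genes, and a fragment number is FPKM times gene length times that depth. Gene positions, transcripts and shared 31-base words come from GENCODE M21 (mm10). Sequence outside annotated transcripts was not searched for shared words.

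The members and lists were chosen with earlier results of these data known. All mitochondrial rows may be named. Of the nuclear list the 5 highest and 5 lowest changes are named, with Polrmt, Tfam, Lrpprc, Slirp, Twnk and Elac2. 3 symbols of that list and 1 of 6 hepatocyte markers did not match. Jumps within a group were read from the gap of the extreme library to its neighbour over the group's range. Alternatives changed the pseudocount, filter, scaling, trend, replicate block and libraries used.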

Additional observations from a re-analysis of the deposited data

Results flagged for a closer look

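Each of the 37 rows was examined in each group of 4 libraries, 74 row and group pairs in all, for an extreme library whose gap to its nearest neighbour took up more of the group's range than Dixon's critical ratio for 4 samples allows. Chance alone marks about 1 in 20 such groups, and 5 were marked. mt-Ts2 in RIC_hEV had a ratio of 1, with 289 FPKM in RIC_hEV 1 against 0.240 in the next library. mt-Atp6 in RIC_hEV had a ratio of 0.955, with 5271 FPKM in RIC_hEV 4 against 1266. mt-Atp6 in ctr_hEV had a ratio of 0.879, with 829 FPKM in ctr_hEV 1 against 1057, and mt-Nd6 in ctr_hEV one of 0.884, with 2061 FPKM in ctr_hEV 1 against 2960.3. mt-Th in ctr_hEV had a ratio of 0.852, with 218 FPKM in ctr_hEV 4 against 125. On log2(FPKM + 1) the number marked was again 5, and on FPKM scaled to rows that are not mitochondrial it was 6. mt-Th in ctr_hEV lost its mark on the log2 scale, at 0.801, and mt-Atp6 in ctr_hEV lost it on the other, at 0.807. mt-Atp8 in ctr_hEV gained a mark on the log2 scale, at 0.837, with ctr_hEV 1 lowest. On the scaled FPKM, mt-Co2 and mt-Nd6 in RIC_hEV gained marks, at 0.857 and 0.845.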

How the results depend on the processing

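No mitochondrial row and no nuclear gene of the list was called at an adjusted p under 0.05 under any alternative in limma except mt-Tt and mt-Ti without ctr_hEV 4, so the count of transfer RNAs called ranged from 0 to 2 over the libraries left out. The 4 calls among all tested genes became 2 with no filter on low values, 2 without RIC_hEV 1 and RIC_hEV 4 together, an alternative chosen after seeing the data, and 1 to 175 with 1 library left out. The lowest count, 1, was reached without RIC_hEV 3 or RIC_hEV 4, and 2 were called without ctr_hEV 3 or RIC_hEV 1. Without ctr_hEV 4, 41 were higher and 134 lower. The cause was not tested. The median log2 change of the messenger RNAs was 0.28 after median centring and 0 after quantile normalization, and 0.055 to 0.19 with 1 library left out. Of the single mitochondrial rows, 16 changed sign without ctr_hEV 1 and ctr_hEV 3 together and 10 without ctr_hEV 1, all uncalled. The replicate block gave 3 calls among all tested genes, 1 higher and 2 lower, and none among mitochondrial rows. Libraries with the same number correlated at 0.05, 0.12, -0.01 and -0.23 in their deviations from the group means. Those with different numbers correlated at -0.15 to 0.19. With 4 libraries per group, these values cannot show whether the numbers pair the libraries. Depth may limit mt-Td and mt-Tf, whose values are worth few fragments by an estimate that is itself uncertain for such short genes.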

Other observations

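The ratio of mt-Co1 to its partial copy Gm29216 was 2.68, 2.71, 2.68 and 2.62 in ctr_hEV 1 to 4 and 2.46, 2.58, 2.53 and 2.59 in RIC_hEV 1 to 4, so the groups did not overlap. It was 1 of 21 ratios computed and was singled out after its values were seen. Gm29216 matches bases 1063 to 1545 of mt-Co1 at 99.8%, and both rows were without a call, at log2 changes of 0.09 and 0.16.

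The level of mt-Te relative to the adjacent mt-Nd6 was 0.441 ± 0.0163 in ctr_hEV and 0.484 ± 0.0229 in RIC_hEV (SD, n = 4), with overlap. The ratio of mt-Nd4 to mt-Nd4l, which share 7 bases, was 1.46 to 1.65 over the 8 libraries.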
